A study of Mus musculus with 8 samples.

Results

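Plk2, Cpm, Pde3b, Ramp3, Sytl3, Penk and Tmem267 are 7 of the 19938 genes measured by their own probe sets in mouse spleen, and they were chosen by their log2 differences of both Sle1.3 genotypes from WT on these same arrays. Of these genes, 6 were lower and Tmem267 was higher in every Sle1.3-carrying mouse than in either WT mouse. Each is read by 1 probe set that the array's annotation assigns to no other gene, and all 7 passed the filter on low intensity. The differences from WT chose these genes, so they are given below as a description, with no test.

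RNA of splenocytes, the mixed cells of a digested spleen, was measured in 8 mice with 1 Affymetrix Mouse Gene 1.0 ST array each. The groups were Sle1.3/E2-2het (3 mice, Sle1.3 mice haplodeficient for the transcription factor E2-2, labelled male, male and female), Sle1.3 (3 mice, described as lupus mice, labelled female, female and male) and WT (2 mice, labelled male). All 8 carry the strain label C57/B6. By their group names, the Sle1.3 groups share whatever the Sle1.3 loci bring, and the WT mice are the only animals without them. The E2-2 loss is not restricted to a cell type by any label, and ages were not given in the sources used here. Values are log2 intensities, in which a difference of 1 is a doubling, and levels of different genes are not set against each other because probe sets differ in brightness.

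The genes act at different points of cell signalling. Plk2 is a Polo-like serine/threonine kinase of centriole duplication that p53 switches on, and Cpm is a membrane-bound carboxypeptidase that trims arginine or lysine from the end of peptides such as kinins. Pde3b degrades the second messenger cAMP, Ramp3 is the partner that turns the calcitonin receptor-like receptor into an adrenomedullin receptor, and Sytl3 is a synaptotagmin-like protein that binds Rab27, a small GTPase of secretory vesicles. Penk encodes proenkephalin, the precursor of the opioid peptides Met- and Leu-enkephalin, while Tmem267 is a predicted membrane protein of little-known function.

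The arrays and labels bear on every comparison below. Array medians were 5.83 to 5.95 in 6 arrays and 6.17 in both arrays numbered replicate 3, whose lowest linear intensities were 11.2 (Sle1.3/E2-2het) and 10.9 (Sle1.3), against 4.57 to 5.11 in the other 6, called the first array set here. The interquartile range of log2 intensity was 2.77 and 2.97 in the WT arrays, against 2.41 to 2.57 in the Sle1.3-carrying arrays. The part of this difference in distribution in the shared shifts was not tested. Xist was 11.82 in Sle1.3/E2-2het replicate 3 and 10.68 to 11.90 in the 3 Sle1.3 arrays, against 3.75 to 4.29 in the other 4 arrays, so 1 mouse labelled male, Sle1.3 replicate 3, carried a female pattern, and its Y-linked Kdm5d was 4.19, against 7.40 and 7.58 in WT. Sex and genotype therefore cannot be told apart between Sle1.3 and WT. Nor can they between the Sle1.3 arrays and Sle1.3/E2-2het replicates 1 and 2, whose Xist was 3.79 and 4.29. This holds for numbered pairs 1 and 2, the first array set alone and any fit without Sle1.3/E2-2het replicate 3. The gene of E2-2, Tcf4, read 8.18, 8.13 and 9.25 on Sle1.3/E2-2het arrays and 8.67, 8.63 and 9.06 on Sle1.3 arrays, set beside 9.02 and 8.80 on WT arrays. The array labelled Sle1.3/E2-2het replicate 3 was thus not low in Tcf4, and the difference of Tcf4 between the Sle1.3/E2-2het and Sle1.3 arrays was -0.27 (SE 0.27, limma adjusted p = 1.00). Leukocyte and spleen markers (Ptprc, Cd79a, Cd3e, Spic, Itgam) were all measured above the filter.

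Plk2 was near the low end of the measured range in both Sle1.3 genotypes. Its log2 intensity was 4.87, 4.96 and 5.05 in Sle1.3/E2-2het mice and 4.94, 5.11 and 5.01 in Sle1.3 mice, against 7.10 and 7.62 in WT mice. The 6 Sle1.3-carrying arrays lay within a narrow band far below both WT arrays, 5.29-fold lower on average in Sle1.3/E2-2het and 5.06-fold lower in Sle1.3. That band sits at the 25th percentile of all measured genes (5.01), and no detection call came with the values, so the distance to WT may be understated and a difference between the 2 Sle1.3 genotypes may not show. Plk2 passed the filter on low intensity only through its level in WT. In bulk RNA of this kind, fewer cells of a type and less RNA per cell cannot be told apart.

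The 250 bases before the Plk2 start (RefSeq, GRCm38.p6, chr13:110394794-110395043, plus strand) are shown because Plk2 alone among the members searched carries a complete cAMP response element, TGACGTCA, the palindrome that binds CREB-family factors, marked in capitals.
Plk2: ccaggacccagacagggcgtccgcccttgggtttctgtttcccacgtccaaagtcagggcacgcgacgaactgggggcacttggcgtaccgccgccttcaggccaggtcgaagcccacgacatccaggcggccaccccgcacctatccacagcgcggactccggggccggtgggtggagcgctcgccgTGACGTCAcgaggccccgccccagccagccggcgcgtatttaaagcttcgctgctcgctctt
The motif was searched on both strands in 5 of the 7 genes with a RefSeq promoter window (6 starts). It occurred in 1.55% of 32851 mouse promoter windows of the same length. A match of letters is a description and not evidence of binding.

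Cpm, the peptide-trimming enzyme, showed a difference from WT of similar size. It was 7.24, 7.27 and 7.97 in Sle1.3/E2-2het and 7.10, 7.75 and 6.92 in Sle1.3, against 9.80 and 9.64 in WT. All 6 Sle1.3-carrying arrays were well below WT, 4.69-fold lower in Sle1.3/E2-2het and 5.52-fold lower in Sle1.3, while the 2 genotypes overlapped each other. The spread within each Sle1.3 genotype (SD 0.41 in Sle1.3/E2-2het and 0.44 in Sle1.3, n = 3 each) was wider than that of Plk2 (SD 0.09 in both).

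Pde3b, Ramp3 and Sytl3 are described together, a grouping made after their values were seen, because their means were lowest in Sle1.3. The step between the 2 Sle1.3 genotypes passed for none of them in the fit over all arrays. Pde3b, the cAMP phosphodiesterase known for its part in insulin action in fat and liver, was 8.11, 8.28 and 8.53 in Sle1.3/E2-2het and 7.62, 7.97 and 7.33 in Sle1.3, against 9.58 and 9.68 in WT. Its 3 groups did not overlap, and the level was 2.51-fold lower than WT in Sle1.3/E2-2het and 3.98-fold lower in Sle1.3.

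Ramp3, the receptor partner, was 6.39, 6.67 and 7.02 in Sle1.3/E2-2het and 5.92, 6.48 and 6.14 in Sle1.3, against 8.10 and 8.32 in WT. The highest Sle1.3 array lay above the lowest Sle1.3/E2-2het array, and both genotypes stayed below WT, 2.86-fold lower in Sle1.3/E2-2het and 4.09-fold lower in Sle1.3. Sytl3, the Rab27 partner, was 5.69, 5.97 and 6.13 in Sle1.3/E2-2het and 4.72, 5.44 and 5.25 in Sle1.3, against 7.04 and 7.61 in WT. Its 3 groups were separate, 2.64-fold lower than WT in Sle1.3/E2-2het and 4.57-fold lower in Sle1.3, and 1 Sle1.3 array was under the 25th percentile of all genes.

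With each gene centred on its own mean, the root mean square difference over the 8 arrays was 0.17 log2 units between Pde3b and Ramp3, 0.18 between Sytl3 and Ramp3 and 0.25 between Pde3b and Sytl3. Cpm and Plk2 differed by 0.33, Penk differed from the other lower genes by 0.69 to 0.88, and Tmem267 from every other member by 1.79 to 2.15. These values share their arrays and are set mostly by the distance from WT that chose the genes, so they are descriptions only. Outside the 7, Slc1a5 came closer to Cpm (0.29) and to Plk2 (0.23) than Cpm and Plk2 came to each other. The closest outside gene was at 0.25 for Pde3b, 0.22 for Ramp3 and 0.29 for Sytl3.

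The promoter windows of Ramp3 and Sytl3 are shown because both hold CACCTG, an E-box letter order of the kind E proteins such as E2-2 can bind, marked in capitals (RefSeq, GRCm38.p6; Ramp3 chr11:6658283-6658532 and Sytl3 chr17:6658809-6659058, both plus strand). The Sytl3 window precedes a start inside the listed gene, which begins at 6658133, so its CACCTG lies within the gene span. The end of the Ramp3 window runs past the first listed base of Ramp3, 6658506, but its CACCTG lies before that base.
Ramp3: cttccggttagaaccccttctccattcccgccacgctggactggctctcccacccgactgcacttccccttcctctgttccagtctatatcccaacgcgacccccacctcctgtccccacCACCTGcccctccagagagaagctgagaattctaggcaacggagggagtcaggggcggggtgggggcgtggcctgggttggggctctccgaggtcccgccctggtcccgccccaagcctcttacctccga
Sytl3: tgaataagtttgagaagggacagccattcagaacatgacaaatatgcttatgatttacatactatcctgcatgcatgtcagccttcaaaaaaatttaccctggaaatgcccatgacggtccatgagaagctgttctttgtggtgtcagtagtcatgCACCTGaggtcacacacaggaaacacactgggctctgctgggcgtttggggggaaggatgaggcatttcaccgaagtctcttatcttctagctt
CACCTG, or CAGGTG on the other strand, was present in 2 of 6 member windows (2 of 5 genes) and in 17.2% of 32851 windows. The broader E-box CANNTG, which includes it, was present in 4 of 6 member windows (4 of 5 genes) and in 66.2% of all windows. No test was made of these shares, and absence of the letters from the Plk2, Cpm and Tmem267 windows says nothing of the factor.

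Penk, the enkephalin precursor, had the opposite order of the 2 Sle1.3 genotypes. It was 6.36, 6.03 and 6.78 in Sle1.3/E2-2het and 7.22, 7.51 and 7.59 in Sle1.3, against 8.42 and 8.03 in WT. The 3 groups were separate, with Sle1.3/E2-2het lowest, 3.56-fold lower than WT, and Sle1.3 in between, 1.72-fold lower. Penk is not among the strongest shared shifts: ranked by the smaller of its 2 differences from WT it stood at 809 of 14953 tested genes, whereas Plk2 stood at 13, Tmem267 at 15, Cpm at 18, Ramp3 at 65, Sytl3 at 92 and Pde3b at 121. Neutrophil genes such as Camp, Ltf and Ngp, with Xist, led that ranking. Olfactory receptor and microRNA genes also ranked high. Among them were Olfr1167 at 20 and Mir680-1 at 23, both higher than WT, and Mir142 at 12, lower than WT.

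Tmem267 was the member with the higher level. It was 9.47, 9.40 and 9.66 in Sle1.3/E2-2het and 9.06, 8.87 and 9.36 in Sle1.3, against 6.65 and 6.90 in WT. Each group stood apart from the next, and the level was higher than WT by 2.73 log2 units (6.65-fold) in Sle1.3/E2-2het and by 2.32 log2 units in Sle1.3.

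**Figure D1:**
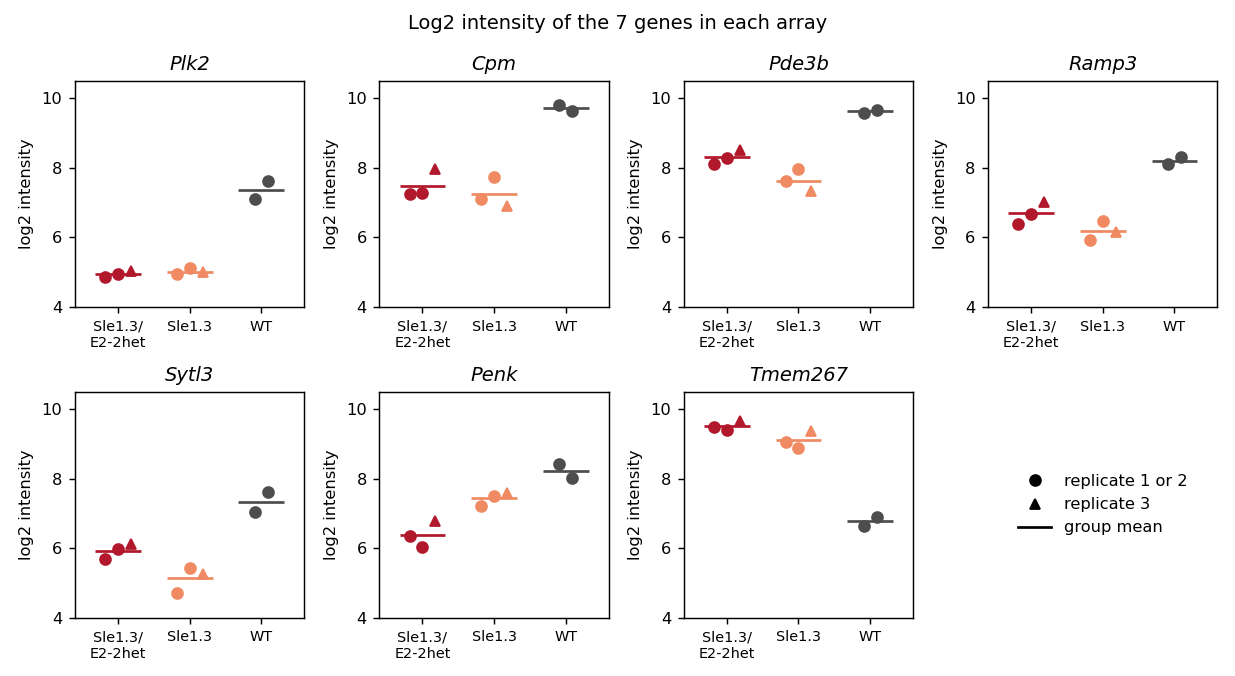
Log2 intensity (y axis) of each gene in each array, by genotype (x axis, Sle1.3/E2-2het, Sle1.3, WT), with circles for replicates 1 and 2, triangles for replicate 3 and lines for group means. The 6 genes other than Tmem267 lie below WT in all 6 Sle1.3-carrying arrays and Tmem267 lies above it. Penk is lowest in Sle1.3/E2-2het (6.03 to 6.78), and Pde3b, Ramp3 and Sytl3 have their lowest means in Sle1.3.

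The background for these values is broad. In 34.9% of the 14953 tested genes all 6 Sle1.3-carrying arrays lay outside both WT arrays, 16.3% higher and 18.6% lower, so separation from 2 WT arrays does not by itself mark the members. Past an adjusted p of 0.05 (limma, Benjamini-Hochberg over all tested genes), 7.2% of genes differed from WT in Sle1.3/E2-2het (3.46% higher, 3.74% lower) and 5.88% in Sle1.3 (2.66% higher, 3.22% lower). In both in the same direction, 3.99% did so (1.87% higher, 2.13% lower). These 2 comparisons share the WT arrays, and they chose the members. In the 2 Sle1.3/E2-2het arrays of the first set, which matched WT in low Xist, the differences from the WT mean were -2.45 for Plk2, -2.47 for Cpm, -1.44 for Pde3b, -1.68 for Ramp3, -1.50 for Sytl3, -2.03 for Penk and 2.66 for Tmem267. Since all 6 Sle1.3-carrying arrays lay outside WT, the direction in these 2 was fixed by the choice of genes, and the part of sex in the differences was not tested.

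The difference between the 2 Sle1.3 genotypes was not itself the rule that chose the genes, but it is not independent of that choice. For each gene it is the gap between the 2 differences from WT that chose it, on the same 6 arrays. The p-values and counts of the members in it are therefore descriptions. In limma over all 14953 genes, 2 genes (0.0134%) passed an adjusted p of 0.05, Fcgr4, an activating Fc receptor (-2.33, SE 0.28), and Gcsam, a germinal centre B cell gene (-1.65, SE 0.21), both lower in Sle1.3/E2-2het with an adjusted p of 0.0432. Fcgr4 passed in 12 and Gcsam in 11 of 19 alternatives, and both missed the threshold without either WT array, Sle1.3 replicate 1 or Sle1.3/E2-2het replicate 2 (adjusted p from 0.0914 to 0.254), as did Gcsam without Sle1.3/E2-2het replicate 1 (0.117). With the replicate number as a block, 262 genes passed. In the fit without that block none of the 7 members passed. In 5 of 7 the unadjusted limma p was under 0.05, 4 higher and 1 lower, beside 625 of all 14953 tested genes. The groups did not overlap in 4 of 7 members, 3 higher and 1 lower, beside 7.38% of all tested genes (3.04% higher and 4.33% lower).

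Penk had the lowest p of the 7. It averaged 6.39 ± 0.37 in Sle1.3/E2-2het and 7.44 ± 0.19 in Sle1.3 (SD, n = 3 each), a limma difference of -1.05 (SE 0.21, 95% interval -1.52 to -0.58, adjusted p = 0.236). Same-numbered mice differed by -0.86, -1.47 and -0.81. With the replicate number as a block the adjusted p was 0.00476, in a fit that called 1.75% of genes, 1.2% lower and 0.548% higher. In the first array set alone the difference was -1.17 with an adjusted p of 0.0240, beside 0.388% of genes called lower. With the array set as a block the adjusted p was 0.0133, beside 0.461%, and with median centring 0.0355, beside 0.154%. Without Sle1.3/E2-2het replicate 3, the array that was not low in Tcf4, the difference was -1.24 (adjusted p = 0.0206, with 0.368% of genes called lower). In that fit and in the first array set alone, every Sle1.3/E2-2het array had low Xist and every Sle1.3 array high Xist. Sex and genotype cannot be told apart in them. The direction was lower in 3 of 3 numbered pairs, and the adjusted p ranged from 0.00476 to 0.88 over the 19 alternatives.

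Sytl3 averaged 5.93 ± 0.22 in Sle1.3/E2-2het and 5.14 ± 0.38 in Sle1.3 (SD, n = 3 each), a difference of 0.79 (SE 0.23, 95% interval 0.28 to 1.29, limma adjusted p = 0.538). It was higher in 3 of 3 numbered pairs, by 0.97, 0.52 and 0.87, and passed with the replicate block (adjusted p = 0.00788) and under none of the other 17 alternatives. Pde3b averaged 8.30 ± 0.21 in Sle1.3/E2-2het and 7.64 ± 0.32 in Sle1.3 (SD, n = 3 each), a difference of 0.67 (95% interval 0.24 to 1.09, limma adjusted p = 0.541, and 0.0520 with the block). Its widest pair difference, 1.20, came from the replicate 3 arrays, and in the first set alone the difference was 0.40 (adjusted p = 0.422).

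Ramp3 and Tmem267 leaned the same way without passing in any fit. Ramp3 differed by 0.52 (95% interval 0.06 to 0.97, limma adjusted p = 1.00, and 0.0902 with the block), with pair differences of 0.47, 0.19 and 0.88. Tmem267 differed by 0.41 (95% interval 0.02 to 0.80, adjusted p = 1.00, and 0.150 with the block), with pair differences of 0.41, 0.52 and 0.30. Both were higher in Sle1.3/E2-2het in 3 of 3 pairs.

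The differences of Plk2 and Cpm were nearer 0. The Plk2 difference was -0.06 (SE 0.17, 95% interval -0.44 to 0.32, limma adjusted p = 1.00), but with all 6 arrays near the filter level these bounds do not limit the change in the RNA. The Cpm difference was 0.23 (SE 0.25, 95% interval -0.32 to 0.79, adjusted p = 1.00), and its pairs split, at 0.14, -0.48 and 1.05. The positive Cpm value rests on Sle1.3/E2-2het replicate 3: without that array it was -0.0022, and in the first set alone it was -0.17.

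**Figure D2:**
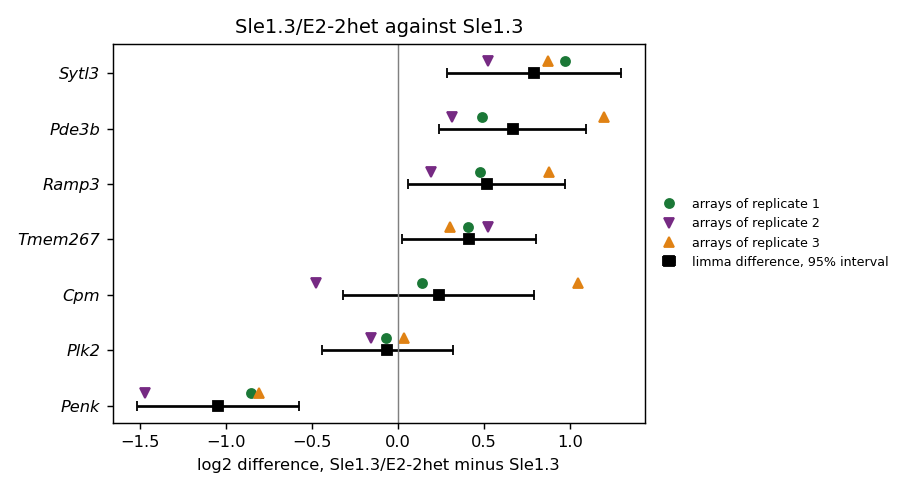
Difference in log2 intensity, Sle1.3/E2-2het minus Sle1.3 (x axis), for each of the 7 genes (y axis): squares with bars are the limma difference and its 95% interval, and coloured markers are the same-numbered array pairs. Penk lies left of 0 in all 3 pairs, Sytl3, Pde3b, Ramp3 and Tmem267 lie right of 0 in all 3, and Plk2 and Cpm straddle 0.

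Other genes of the members' pathways were taken from lists that left the members out. For Pde3b, 22 of 26 listed genes of cAMP synthesis, breakdown and response were tested. In Sle1.3 against WT 4 fell and none rose past an adjusted p of 0.05 (list median -0.12, all genes 0.03), beside 5.88% of all genes. In Sle1.3/E2-2het against WT 2 fell and none rose (list median -0.19, all genes -0.01), beside 7.2%. Between the 2 Sle1.3 genotypes none of the 22 passed limma, and 2 had an unadjusted p under 0.05, both higher in Sle1.3/E2-2het.

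Pde8a, another cAMP phosphodiesterase, fell in both genotypes. It was 6.03, 6.14 and 6.27 in Sle1.3/E2-2het and 6.04, 6.13 and 6.13 in Sle1.3, against 7.25 and 7.43 in WT, with differences from WT of -1.20 (SE 0.17, limma adjusted p = 0.00637) in Sle1.3/E2-2het and -1.24 (SE 0.17, adjusted p = 0.00697) in Sle1.3. The 6 Sle1.3-carrying arrays were tightly together and a full unit below WT.

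In Sle1.3 against WT the phosphodiesterases Pde7b (-0.92, SE 0.23, limma adjusted p = 0.0395) and Pde4d (-0.75, SE 0.19, adjusted p = 0.0411) and the cAMP-responsive transcription factor Crem (-1.08, SE 0.22, adjusted p = 0.0202) also fell. In Sle1.3/E2-2het Prkar2a, a regulatory subunit of protein kinase A, fell by 1.09 (SE 0.26, adjusted p = 0.0356). No gene of the list passed when either WT array was left out, with Pde8a at an adjusted p of 0.0601 in Sle1.3/E2-2het and 0.0622 in Sle1.3 without WT replicate 1, and 0.134 and 0.137 without WT replicate 2. Prkar2a also missed it without Sle1.3/E2-2het replicate 2 (0.100), Crem without Sle1.3 replicate 1 (0.0605), and Pde4d and Pde7b without any single Sle1.3 array (0.0587 to 0.146) and without Sle1.3/E2-2het replicate 1 (0.0633 and 0.0530). With the replicate block 10 of the 22 fell and 1 rose in Sle1.3/E2-2het and 9 fell in Sle1.3 against WT, in fits that called 40.2% and 29.5% of all genes, and 1 was higher in Sle1.3/E2-2het than in Sle1.3. In the first array set alone, with 2 arrays fewer, 9 of the 22 fell and 1 rose in Sle1.3/E2-2het, beside 34% of all genes called, and 7 fell in Sle1.3, beside 15.8%. Prkaca and Rapgef4 had no probe set of their own, and Pde3a and Adcy8 were below the filter.

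**Figure D3:**
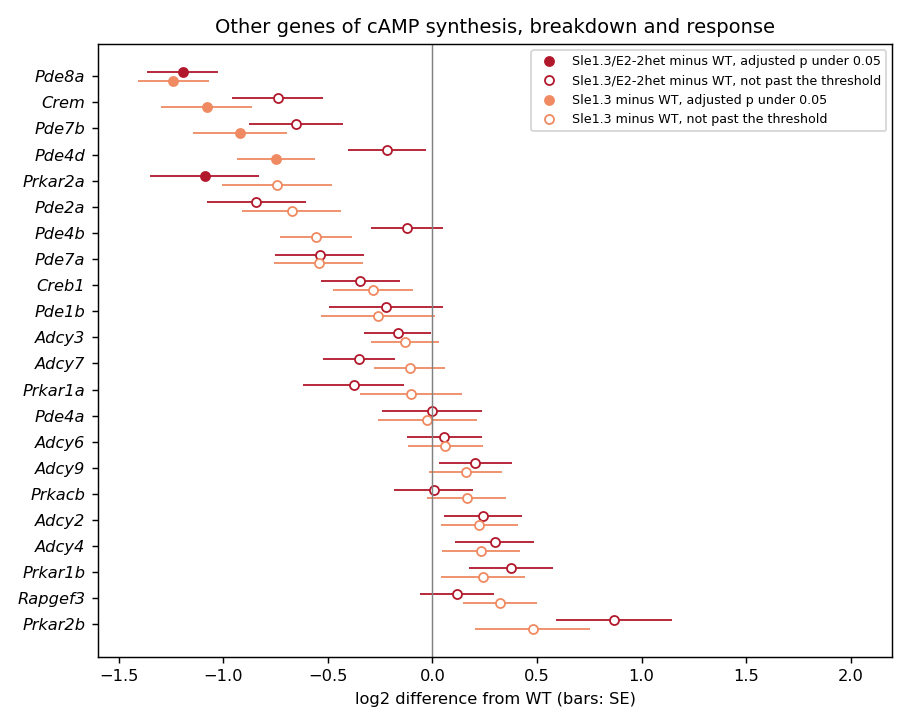
Log2 difference from WT (x axis, bars are SE) of 22 genes of cAMP synthesis, breakdown and response (y axis) in Sle1.3/E2-2het and Sle1.3, filled where the limma adjusted p was under 0.05. Pde8a is filled in both genotypes, near -1.20, and Crem, Pde7b and Pde4d are filled in Sle1.3 and Prkar2a in Sle1.3/E2-2het.

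Of 14 listed Polo-like kinases and p53 target genes 13 were tested, and in Sle1.3 against WT 1 rose and none fell (list median 0.18), a share near the 5.88% of all tested genes. That gene was Plk1, the mitotic Polo-like kinase, at 7.57, 6.78 and 7.29 in Sle1.3, against 6.36 and 6.05 in WT, a difference of 1.01 (SE 0.25, limma adjusted p = 0.0427) opposite in sign to that of Plk2. In Sle1.3/E2-2het Plk1 was 6.58, 6.05 and 6.47, inside or near the WT range, and its difference from Sle1.3 was -0.84 (adjusted p = 0.449). No listed gene passed in Sle1.3/E2-2het against WT (list median -0.10), where the smallest p belonged to the stress gene Gadd45a (0.54, adjusted p = 0.0699) and the p53 ubiquitin ligase Mdm2 (-0.41, adjusted p = 0.175), and 1 gene had an unadjusted p under 0.05. The Plk1 call was lost without WT replicate 1 (adjusted p = 0.145), WT replicate 2 (0.385), Sle1.3 replicate 1 (0.137), Sle1.3 replicate 3 (0.0757) or Sle1.3/E2-2het replicate 1 (0.0560). With the replicate block 1 listed gene passed in each direction in Sle1.3/E2-2het against WT and 2 in each direction in Sle1.3 against WT. Between the Sle1.3 genotypes 2 were lower in Sle1.3/E2-2het. Of all tested genes, these fits called 40.2% and 29.5% against WT, and 1.2% lower in Sle1.3/E2-2het than in Sle1.3. Cdkn1a had no probe set of its own.

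The partners of Ramp3 showed no called change. Of 11 listed genes of the CGRP and adrenomedullin system 8 were tested, none passed limma in any comparison and none had an unadjusted p under 0.05. The list medians were 0.19 in Sle1.3/E2-2het and 0.21 in Sle1.3 against WT. Calcrl, the receptor that Ramp3 accompanies, differed from WT by -0.43 in Sle1.3 (adjusted p = 0.229), and the peptide gene Calcb by 0.50 in Sle1.3/E2-2het (adjusted p = 0.206) and 0.52 in Sle1.3 (adjusted p = 0.238). Gper1, a receptor that can pair with Ramp3, differed by 0.42 in Sle1.3/E2-2het (adjusted p = 0.197). The sister genes Ramp1 (0.11 and 0.31) and Ramp2 (0.29 and 0.23) had small positive differences in Sle1.3/E2-2het and in Sle1.3, unlike Ramp3. With the replicate block 1 listed gene was higher in Sle1.3/E2-2het and 1 was lower in Sle1.3 against WT. Those fits called 40.2% of all tested genes in Sle1.3/E2-2het and 29.5% in Sle1.3, in either direction.

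Rab27 and its effectors, the partners of Sytl3, gave 11 tested genes of 13 and none that passed limma in any comparison. The list medians were 0.08 in Sle1.3/E2-2het and 0.26 in Sle1.3 against WT. Unc13d, which primes cytotoxic granules for release, had the smallest adjusted p in Sle1.3/E2-2het (-0.68, adjusted p = 0.0589), ahead of the effector Myrip (0.64, adjusted p = 0.132). In Sle1.3 the paralogue Sytl2 stood at -0.60 (adjusted p = 0.114) and Sytl4 at 0.44 (adjusted p = 0.236). An unadjusted p under 0.05 was reached by 2 genes in Sle1.3/E2-2het against WT, 1 in each direction, and by 1 lower gene in Sle1.3 against WT. With the replicate block 1 listed gene rose and 3 fell in Sle1.3/E2-2het and 1 fell in Sle1.3 against WT. Of all tested genes, the same fits called 40.2% in Sle1.3/E2-2het and 29.5% in Sle1.3.

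For Penk, 14 of 18 listed genes of opioid peptides, their receptors and their processing were tested. Furin, a convertase that cleaves many precursors, fell by 0.84 (SE 0.22, limma adjusted p = 0.0467) in Sle1.3/E2-2het against WT, 1 gene of 14, a share near the 7.2% of all tested genes, and its difference in Sle1.3 was -0.82 (adjusted p = 0.0528). No listed gene passed in Sle1.3 against WT, where an unadjusted p under 0.05 was reached by 1 higher gene and 2 lower genes, or between the 2 Sle1.3 genotypes, where none reached that level. The Furin call was lost without WT replicate 1 (adjusted p = 0.190), WT replicate 2 (0.268), Sle1.3 replicate 1 (0.0696), Sle1.3 replicate 2 (0.0516), Sle1.3/E2-2het replicate 1 (0.0725) or Sle1.3/E2-2het replicate 2 (0.122). With the replicate block 2 listed genes rose and 3 fell in Sle1.3/E2-2het and 2 fell in Sle1.3 against WT. Those fits called 40.2% of all tested genes in Sle1.3/E2-2het and 29.5% in Sle1.3. The list medians were 0.24 in Sle1.3/E2-2het and 0.18 in Sle1.3 against WT.

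For Cpm, 10 of 16 listed regulatory peptidases and kinin receptors were tested and none passed limma in any comparison. The list medians were 0.16 in Sle1.3/E2-2het and 0.05 in Sle1.3 against WT. The mast cell carboxypeptidase Cpa3 differed from WT by 1.40 in Sle1.3 (SE 0.42, adjusted p = 0.0744), and the aminopeptidase Anpep, which also degrades enkephalins, by -0.48 in Sle1.3/E2-2het (adjusted p = 0.211) and -0.65 in Sle1.3 (adjusted p = 0.136). Cpxm1 differed by 0.60 in Sle1.3/E2-2het (adjusted p = 0.253). An unadjusted p under 0.05 was reached by 2 genes in Sle1.3, 1 in each direction, and by none in Sle1.3/E2-2het. With the replicate block 1 fell in Sle1.3/E2-2het, and 1 rose and 1 fell in Sle1.3, against WT. The same fits called 40.2% of all tested genes in Sle1.3/E2-2het and 29.5% in Sle1.3.

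The members lie on 6 chromosomes (RefSeq, GRCm38.p6): Plk2 at chr13:110395044-110400844, Tmem267 at chr13:119488086-119610459, Cpm at chr10:117629500-117687352, Pde3b at chr7:114415222-114537938, Ramp3 at chr11:6658506-6677478, Sytl3 at chr17:6658133-6738070 and Penk at chr4:4133536-4138815. Of the 14 nearest measured genes on either side, 12 were tested, and the 6 Sle1.3-carrying arrays lay outside WT in 5 of them, 1 higher and 4 lower, beside 34.9% of all genes.

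Cyp2r1, a vitamin D 25-hydroxylase 12185 bases beyond Pde3b, was the neighbour that fell in both genotypes. It was 5.54, 5.71 and 5.61 in Sle1.3/E2-2het and 5.57, 5.71 and 5.59 in Sle1.3, against 6.32 and 6.54 in WT. The differences from WT were -0.81 (SE 0.17, limma adjusted p = 0.0234) in Sle1.3/E2-2het and -0.80 (SE 0.17, adjusted p = 0.023) in Sle1.3. Without WT replicate 1 the adjusted p was 0.0964 in Sle1.3/E2-2het and 0.112 in Sle1.3, and without WT replicate 2 it was 0.259 in both.

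Ezr, the membrane linker ezrin that ends 61 bases from Sytl3, stood at -0.64 in Sle1.3/E2-2het (limma adjusted p = 0.0612) and -0.68 in Sle1.3 (adjusted p = 0.0591). 3110070M22Rik, which overlaps the start of Tmem267, stood at 0.49 in Sle1.3/E2-2het (adjusted p = 0.116) and 0.46 in Sle1.3 (adjusted p = 0.168), a small part of the Tmem267 difference. The other tested neighbours, among them Mdm2 beside Cpm and Ccl28 beside Tmem267, lay between -0.60 and 0.58.

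**Figure D4:**
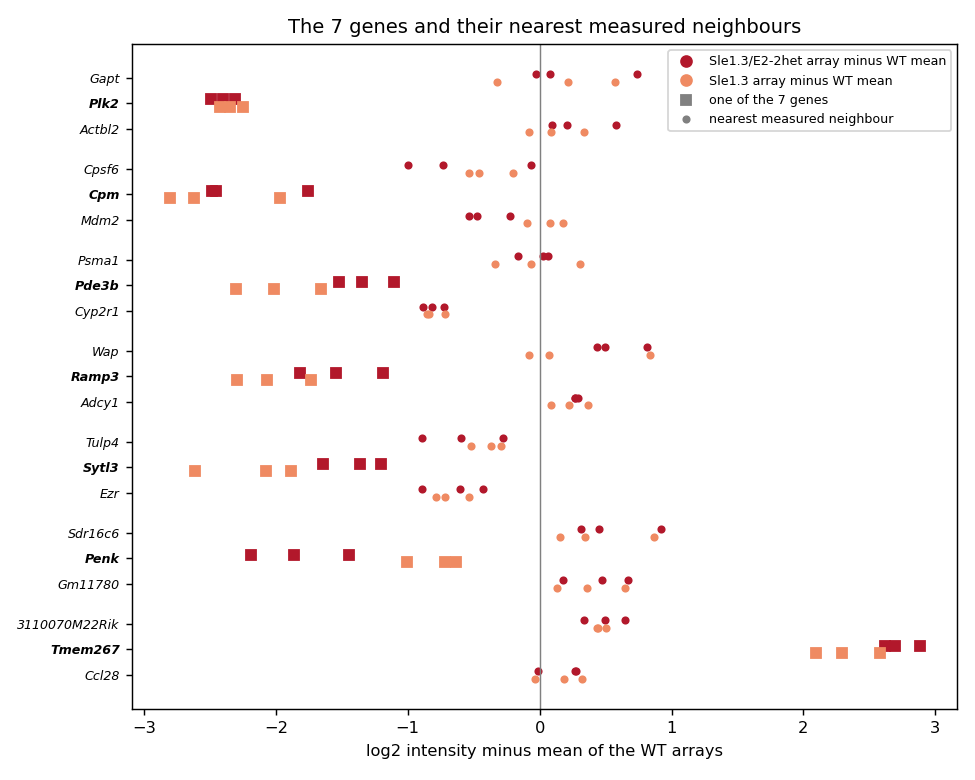
Log2 intensity minus the WT mean (x axis) for each Sle1.3/E2-2het and Sle1.3 array, for the 7 genes (squares) and their nearest measured neighbours (dots), grouped down the y axis. The squares of each member lie on a single side of 0, and of the neighbours Cyp2r1 has the lowest mean in both genotypes.

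The genes outside the 7 whose centred profiles over the 8 arrays came closest to each member were the following, by root mean square difference in log2 units, a measure set mostly by the distance from WT. Plk2 was closest to Mir142 (0.22) and the glutamine transporter Slc1a5 (0.23), and Cpm to the same pair (0.37 and 0.29). Pde3b was closest to the glycerol-3-phosphate dehydrogenase Gpd2 (0.25) and the stress kinase Eif2ak3 (0.25), and Ramp3 to Eif2ak3 (0.22) and Mir18 (0.24). Sytl3 was closest to Mir18 (0.29) and Klrc1 (0.32), an NK cell receptor gene. Penk was closest to the integrin gene Itgav (0.26), which was 7.57, 7.30 and 8.12 in Sle1.3/E2-2het and 8.16, 8.19 and 8.42 in Sle1.3, against 8.998 and 9.065 in WT, and then to Plagl1 (0.31). Tmem267 was closest to the olfactory receptor gene Olfr1167 (0.14), whose log2 intensity was 5.25 to 6.09 in the Sle1.3-carrying arrays and 3.29 to 3.42 in WT, and to Mir680-1 (0.32).

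Marker genes of several spleen cell types moved with the same groups. The summed linear intensity of the 8 natural killer markers was 1320 to 2025 in Sle1.3/E2-2het and 1057 to 1278 in Sle1.3, against 1972 to 2229 in WT. The markers did not move as 1: the list median was 0.24 in Sle1.3/E2-2het and -1.03 in Sle1.3 against WT. Eomes (-0.94 in Sle1.3/E2-2het, -1.03 in Sle1.3) and Il2rb (-0.98 and -1.13) were lower in both, whereas Gzma was 1.46 in Sle1.3/E2-2het and 0.34 in Sle1.3. The sum of 7 of 8 plasmacytoid dendritic cell markers was 2312 to 3521 in Sle1.3/E2-2het and 2262 to 2573 in Sle1.3, against 4007 to 4230 in WT, lower in all 6 Sle1.3-carrying arrays. The 2 brightest of them, Spib (-1.73 in Sle1.3/E2-2het, -1.55 in Sle1.3) and Ly6d (-0.13 and -0.45), are also B cell genes, and the list median was -0.15 in Sle1.3/E2-2het and -0.45 in Sle1.3. Siglech was -0.59 in Sle1.3/E2-2het and -0.78 in Sle1.3, while Bst2 (0.06 and 0.11) and Cox6a2 (0.23 and 0.14) were not lower. The 9 of 10 B cell markers summed to 11286 to 16480 in Sle1.3/E2-2het and 12598 to 14718 in Sle1.3, against 14942 to 17771 in WT, and here Sle1.3/E2-2het reached into the WT range.

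The 10 neutrophil markers moved farthest, summing to 8946 to 25276 in Sle1.3/E2-2het and 8337 to 27548 in Sle1.3, against 1894 to 2883 in WT, with every Sle1.3-carrying array above both WT arrays. Splenic macrophage markers summed to 2572 to 4304 in Sle1.3/E2-2het and 2288 to 3156 in Sle1.3, against 1185 to 1800 in WT. Their list median against WT was 1.15 in Sle1.3/E2-2het and 0.53 in Sle1.3. In Sle1.3 the C1q genes differed most (C1qb 1.685, C1qc 1.37, C1qa 1.10), while Vcam1 (0.05), Spic (0.10) and Hmox1 (0.18) were near WT. Erythroid markers summed to 1283 to 2487 in Sle1.3/E2-2het and 546 to 772 in Sle1.3, against 627 to 636 in WT. That sum was high in Sle1.3/E2-2het, the genotype in which Penk was lowest. The erythroid list median was 0.98 in Sle1.3/E2-2het and 0.25 in Sle1.3 against WT. In Sle1.3/E2-2het Slc4a1 (2.48) and Alas2 (2.30) differed most from WT and Tfrc (0.37) least. Gata1 was 1.01 in Sle1.3/E2-2het and 0.83 in Sle1.3. T cell markers summed to 2862 to 4633 in Sle1.3/E2-2het and 3254 to 4104 in Sle1.3, against 3979 to 4586 in WT, and conventional dendritic cell markers to 1003 to 1156 in Sle1.3/E2-2het and 833 to 927 in Sle1.3, against 970 to 1419 in WT. Of the markers of other tissue in the preparation, stromal ones summed to 739 to 998 in Sle1.3/E2-2het and 782 to 1048 in Sle1.3, against 730 to 817 in WT, and exocrine pancreas ones to 295 to 365 in Sle1.3/E2-2het and 267 to 375 in Sle1.3, against 234 to 264 in WT. The part of these cell types in the member values was not tested.

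**Figure D5:**
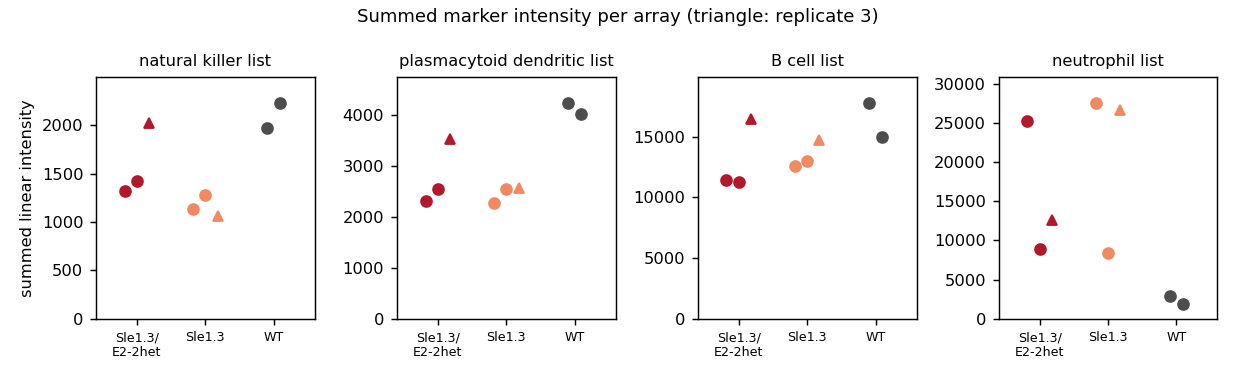
Summed linear intensity (y axis) of marker genes of natural killer cells, plasmacytoid dendritic cells, B cells and neutrophils (1 panel each) in each array by genotype (x axis), with triangles for replicate 3. The plasmacytoid dendritic cell sums are below WT in all 6 Sle1.3-carrying arrays, and the neutrophil sums are above WT in all 6.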

How the data were processed

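The authors deposited 1 table of probe set intensity values for the 8 arrays, linear rather than logged. The submitters' processing notes name RMA and Expression Console of Affymetrix, and versions and settings are not given in the sources used here. Log2 was taken here. Of 35556 probe sets 21789 name a single gene, and the others (1621 with several genes, 12146 with none listed) were left out. Each of 19938 genes was represented by its brightest probe set, and 14953 with a mean above the 25th percentile (log2 5.01) were tested. The table holds no background level or detection call, and the 8 arrays limit the precision.

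Groups were compared with limma 3.58.1 in R 4.3.3 (lmFit, eBayes, two-sided, 1 fit to 8 arrays, genotype only), with Benjamini-Hochberg adjustment over all tested genes, a threshold of 0.05 and a check on simulated data. Labelled sex was not a term, since 1 label disagreed with Xist and the Y-linked genes and labelled sex coincides with the array set within the Sle1.3 groups; it was tried as an alternative. Further alternatives were a replicate block, the array set as a block, the first array set alone, other filters and scalings, and leaving out each array.

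The replicate numbers pair Sle1.3/E2-2het with Sle1.3 arrays, since deviations from the group means correlated at 0.573, 0.369 and 0.618 for same-numbered arrays and at -0.536 to 0.119 for the others. The pairing comes from the data, as no label says what a number shares. With WT, same-numbered arrays correlated at -0.0768 to 0.214, and the block was also used in the comparisons with WT. Each array is a separate mouse.

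The members and the gene lists were chosen with earlier results of these data known. Named genes were the members, up to 4 called genes per pathway list and comparison or else the 2 with the smallest p, nearest measured neighbours, the 2 closest profiles per member, and Tcf4 and sex-linked genes.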

Additional observations from a re-analysis of the deposited data

How the results depend on the processing

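Directions of the 7 members against WT held under all 19 alternatives (18 for Plk2 and Sytl3, which miss the stricter filter), for example from -2.87 to -2.30 for Cpm in Sle1.3 and from -0.98 to -0.59 for Penk in Sle1.3. In the comparison of the Sle1.3 genotypes, Cpm alone among the members changed sign, to -0.17 in the first array set and -0.0022 without Sle1.3/E2-2het replicate 3 (-0.0022 to 0.48 when 1 array was left out); Penk passed in 5 of 19 alternatives and Sytl3 in 1 of 18. The counts of genes past the threshold depended strongly on the fit. For Sle1.3/E2-2het against Sle1.3, 2 became 262 with the replicate block (82 higher, 180 lower), 92 with the array set as a block, 79 in the first array set, 26 with median centring (11.5% higher), 18 with quantile normalization, 13 with the stricter filter, and 0 with labelled sex, no filter or only the 2 groups, where 392, 568 and 558 genes had an unadjusted p under 0.05; leaving out 1 array gave 0 to 78. For Sle1.3 against WT, 879 (45.3% higher) became 4410 with the replicate block, 3585 with the array set block, 2367 in the first set, 2508 with median centring (25.5% higher), 538 with no filter and 199 with labelled sex; leaving out 1 array gave 2 to 1658, with 9 without WT replicate 1 and 2 without WT replicate 2. For Sle1.3/E2-2het against WT, 1076 (48% higher) became 6008 with the replicate block, 5092 with the array set block, 5086 in the first set, 4131 with median centring (19.1% higher), 619 with no filter and 492 with labelled sex; leaving out 1 array gave 5 to 2583, with 39 without WT replicate 1 and 5 without WT replicate 2. Median centring moved the median of all genes to -0.17 in Sle1.3/E2-2het and -0.098 in Sle1.3 against WT. The cause of these changes was not tested. Differences from WT rest on 2 WT arrays.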
